A study of Homo sapiens with 12 samples.

Results

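The miR-30 family was examined through 10 mature strands, the 5p and 3p arms of its hairpins, out of 1733 miRNAs that were listed in at least 1 of 12 small RNA libraries. The members were taken by name: hsa-mir-30a-5p, hsa-mir-30a-3p, hsa-mir-30b-5p, hsa-mir-30c-5p, hsa-mir-30c-1-3p, hsa-mir-30c-2-3p, hsa-mir-30d-5p, hsa-mir-30d-3p, hsa-mir-30e-5p and hsa-mir-30e-3p. The family was proposed with earlier results of these counts known, and 3 of the members, hsa-mir-30c-2-3p, hsa-mir-30d-3p and hsa-mir-30e-3p, were chosen by their measured values on knockdown. The values of these 3 are therefore given as a description, with no test. The remaining arm, hsa-mir-30b-3p, is not a member and is given beside them.

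The libraries came from AsPC-1 and PANC-1, a pair of established human pancreatic ductal adenocarcinoma cell lines, and the study lowered MYEOV (myeloma overexpressed) with siRNA to ask which miRNAs respond. There were 4 groups of 3 libraries: AsPC-1 control, AsPC-1 MYEOV knockdown, PANC-1 control and PANC-1 MYEOV knockdown. The knockdown libraries of a line are titled si-MYEOV-1 to si-MYEOV-3, and the study's methods name siRNAs siMYEOV-1 and siMYEOV-2. The titles do not say which siRNA a library received, so the number, used here as a replicate number, may also stand for the siRNA. The labels give all of them a harvest time of 48 h and describe the controls as untreated wild type, while the study's methods describe a negative control siRNA and a shorter time, so that the part of transfection itself in a difference was not tested. AsPC-1 was grown in RPMI medium and PANC-1 in DMEM, so cell line, medium and any unlabelled batch cannot be told apart.

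A library held 3805084 to 7311783 counted reads, and all 10 members were listed in all 12 libraries. MYEOV itself is not measured in these files, so the knockdown could not be checked here. Among markers of other cells, those of acinar cells (hsa-mir-217 and hsa-mir-216a-5p) and of leukocytes (hsa-mir-142-5p and hsa-mir-223-3p) stayed at or below 0.843 CPM (reads scaled to library size). Other markers were higher in 1 or both lines: hsa-mir-486-5p of erythroid cells lay at 389 to 563 CPM with hsa-mir-451a at or below 4.30, hsa-mir-7-5p of islets at 15119 to 55890 with hsa-mir-375 at or below 12.1, hsa-mir-143-3p of fibroblasts at 39.8 to 48.6 in PANC-1 with hsa-mir-145-5p at or below 2.37, and hsa-mir-122-5p of hepatocytes at 2.38 to 10.8. Some of these moved with knockdown without overlap. In AsPC-1 hsa-mir-7-5p lay at 46165 to 55890 CPM in controls and 42428 to 42772 on knockdown. There hsa-mir-217 was at 0.309 CPM or less in controls, which is under 3 reads a library, and at 0 on knockdown. In PANC-1 hsa-mir-375 lay at 10.3 to 12.1 and 5.54 to 8.65 CPM, and hsa-mir-122-5p at 2.38 to 3.42 and 3.56 to 5.27. There hsa-mir-145-5p lay at 1.39 to 2.37 and 0.255 to 1.26 CPM, the lowest of these under 3 reads. The part of such cells in the results below was not tested. The epithelial hsa-mir-200c-3p lay at 8864 to 9878 CPM in AsPC-1 against 10.5 to 22.7 CPM in PANC-1. AsPC-1 control replicate 1 stood apart from the other controls of its line (chi-square per degree of freedom 224 and 183, against 22.1 between replicates 2 and 3), and results that change their call without it are given with and without it. The study's methods state in general that experiments were performed independently, but neither they nor the labels say whether the 3 libraries of a group came from separate cultures. If they did not, p-values measure only the spread between these libraries, which may be technical. In bulk libraries, fewer cells carrying a strand and fewer copies per cell cannot be told apart.

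A miRNA is cut from the stem of a hairpin as a short duplex, of which mostly a single strand is loaded into Argonaute and kept, while the partner (the minor arm) is mostly degraded. The loaded strand finds its targets largely through its seed, bases 2 to 8. The 5p strands of the miR-30 family share a seed and are known for holding down transcripts of the epithelial-mesenchymal transition such as those of SNAI1 and vimentin, and miR-30a for holding down the autophagy gene BECN1.

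The sequences show which strands can share targets and which could be confused in counting. The mature strands of 7 members were found in the RefSeq table (GRCh38.p14), which held hsa-mir-30a, 30c-1, 30c-2 and 30e, and are printed 5′ to 3′ with the seed in capitals.
hsa-mir-30a-5p: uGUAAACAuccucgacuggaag
hsa-mir-30e-5p: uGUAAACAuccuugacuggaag
hsa-mir-30c-5p: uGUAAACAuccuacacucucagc
hsa-mir-30a-3p: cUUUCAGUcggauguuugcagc
hsa-mir-30e-3p: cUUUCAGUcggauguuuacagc
hsa-mir-30c-1-3p: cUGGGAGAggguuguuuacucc
hsa-mir-30c-2-3p: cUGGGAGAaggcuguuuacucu

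These 7 strands fell into 3 seed groups. The 5p strands of 30a, 30c and 30e held GUAAACA, the 3p strands of 30a and 30e held UUUCAGU, and both 3p strands of 30c held UGGGAGA. Counting from 1 at the 5′ end, hsa-mir-30a-5p and hsa-mir-30e-5p differed at C13U and hsa-mir-30a-3p and hsa-mir-30e-3p at G18A, with the 30a base first. The 3p strands of 30c differed at G9A, U12C and C22U, with the 30c-1 base first. Of the 1733 counted miRNAs, 1534 had a sequence in the table, and 0 of those outside the family carried any of these 3 seeds. Since 30a and 30e strands differ by a single base, their values rest on reads that were matched without mismatch.

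The hairpins show how each pair of arms is joined, and the arm ratios given further on compare the 2 capitalised stretches of 1 hairpin, 5p first. On GRCh37, the build the authors mapped to, MIR30A lies at chr6:72113254-72113324 and MIR30C2 at chr6:72086663-72086734, both on the minus strand, 26519 bases apart and inside the span of the non-coding gene LINC00472. MIR30A overlapped no exon of the LINC00472 transcripts in the annotation, and MIR30C2 overlapped an exon of 1 transcript. MIR30E lies at chr1:41220027-41220118 and MIR30C1 at chr1:41222956-41223044, both on the plus strand, 2837 bases apart in intron 4 of the transcript NFYC-201 of NFYC, which codes for a subunit of the CCAAT-binding factor NF-Y. Each hairpin had the same letters in GRCh37 as in the RefSeq table.
MIR30A: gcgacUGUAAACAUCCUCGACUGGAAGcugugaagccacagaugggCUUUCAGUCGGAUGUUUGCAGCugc
MIR30E: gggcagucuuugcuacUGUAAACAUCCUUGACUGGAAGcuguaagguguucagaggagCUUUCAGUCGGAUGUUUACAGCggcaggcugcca
MIR30C1: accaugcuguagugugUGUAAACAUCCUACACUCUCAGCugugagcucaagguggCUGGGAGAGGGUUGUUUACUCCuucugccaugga
MIR30C2: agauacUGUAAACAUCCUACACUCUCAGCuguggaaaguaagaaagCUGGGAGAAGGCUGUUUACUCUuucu

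The 5p strand of 30c is the same in both of its hairpins, so its count is the sum over both loci, while its 3p strands are told apart.

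The 5p strands carried nearly all miR-30 reads in both lines. In AsPC-1 controls their sum was 4.16%, 4.34% and 4.31% of counted reads, and in PANC-1 controls 3.95%, 4.13% and 3.99%. The 3p strands of 30a, 30d and 30e summed to 0.0691% to 0.0756% in AsPC-1 controls and 0.134% to 0.146% in PANC-1 controls, and those of 30c to 0.00650% to 0.00723% and 0.0128% to 0.0148%. These 3p sums hold the 3 strands chosen by their values, and single 3p strands did not follow them: hsa-mir-30d-3p held 0.0162% to 0.0180% of counted reads in AsPC-1 controls and 0.00562% to 0.00576% in PANC-1 controls. By mean level, hsa-mir-30d-5p was the miRNA of rank 11 of 1319 listed in AsPC-1 controls, and hsa-mir-30a-5p that of rank 13 of 1374 in PANC-1 controls.

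**Figure D1:**
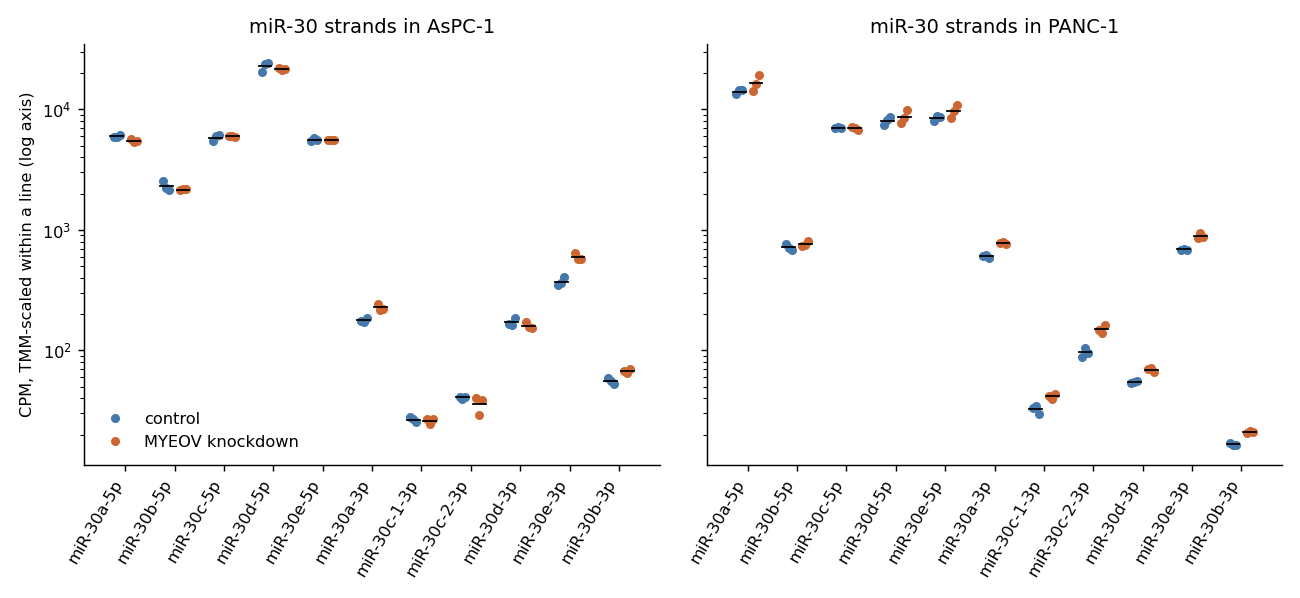
Level of each miR-30 strand in each library, as CPM with TMM factors of that line's fit on a log axis, for AsPC-1 (left) and PANC-1 (right); points are the 3 control and 3 MYEOV knockdown libraries and black lines their means. In AsPC-1 the 5p strands lie above the 3p strands, in PANC-1 hsa-mir-30b-5p lies among hsa-mir-30a-3p and hsa-mir-30e-3p, and hsa-mir-30d-5p is the highest in AsPC-1 and hsa-mir-30a-5p the highest in PANC-1.

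The make-up of the 5p reads differed between the lines, and a share within the family needs no scaling between libraries. Of the 5p reads, hsa-mir-30d-5p held 51.4% to 54.9% in AsPC-1 controls and 20.2% to 22.0% in PANC-1 controls. The share of hsa-mir-30a-5p was 13.5% to 14.9% in AsPC-1 controls and 36.3% to 36.8% in PANC-1 controls. That of hsa-mir-30e-5p was 12.6% to 13.7% against 21.9% to 22.4%. The groups did not overlap for any of these 3 strands, with 30d leading in AsPC-1 and 30a in PANC-1. The share of hsa-mir-30c-5p was 13.6% to 13.8% against 17.7% to 19.3%, and that of hsa-mir-30b-5p 4.87% to 6.41% against 1.74% to 2.11%. In PANC-1 controls the order was 30a, then 30e, 30d and 30c, then 30b. The ranges of 30e and 30d overlapped there. In AsPC-1 controls 30d stood first and 30b last, and the ranges of 30a, 30c and 30e overlapped. The count of hsa-mir-30d-5p was 3.44 to 4.06 times that of hsa-mir-30a-5p in AsPC-1 controls and 0.557 to 0.600 times in PANC-1 controls, while its ratio to hsa-mir-30b-5p was 8.01 to 11.3 and 9.62 to 12.6, which overlapped.

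**Figure D2:**
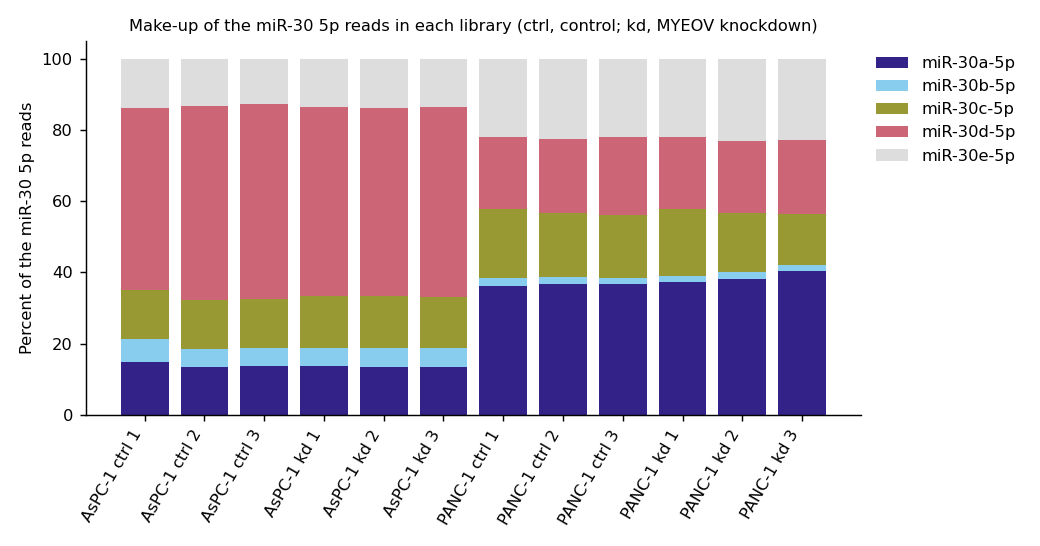
Percent of the miR-30 5p reads held by each 5p strand (vertical axis) in each of the 12 libraries (bars, named by line, ctrl for control or kd for MYEOV knockdown, and replicate). hsa-mir-30d-5p takes over 51% in all AsPC-1 libraries, and hsa-mir-30a-5p takes 36.3% to 40.5% in the PANC-1 libraries.

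Between the control libraries of the lines, 5 of the 7 members that were not chosen by their values passed an adjusted p of 0.05 in edgeR (82.8% of the 627 miRNAs tested did), and 2 of 7 did so with the higher level in AsPC-1 (36.0% of all tested). Over all miRNAs, 226 were called higher and 293 lower in AsPC-1 with TMM factors, and 345 and 200 with upper-quartile factors, with which 5 of the 7 members passed with the higher level in AsPC-1. These levels are TMM-scaled over the 6 control libraries. The log2 fold change (LFC, AsPC-1 minus PANC-1) of hsa-mir-30b-5p was 1.96 ± 0.11 (SE, n = 3 libraries a line, edgeR adjusted p = 2.16e-10), with means of 2613 and 672 CPM. That of hsa-mir-30d-5p was 1.77 ± 0.10 (edgeR adjusted p = 4.27e-10), with means of 25785 and 7542 CPM. Both were higher in AsPC-1. The LFC of hsa-mir-30a-5p was -0.96 ± 0.09 (edgeR adjusted p = 1.17e-07) and that of hsa-mir-30a-3p -1.49 ± 0.10 (edgeR adjusted p = 1.58e-09), so both arms of MIR30A were lower in AsPC-1 with TMM factors, but with upper-quartile factors the 5p arm was at -0.04 (edgeR adjusted p = 0.742) and the 3p arm at -0.57. The LFC of hsa-mir-30e-5p was -0.33 ± 0.09 (edgeR adjusted p = 0.00368) with TMM factors and 0.60 with upper-quartile factors, the opposite direction. With TMM factors its LFC was -0.26 and did not pass without AsPC-1 control replicate 3 (edgeR adjusted p = 0.0517) or without PANC-1 control replicate 2 (edgeR adjusted p = 0.0544). For hsa-mir-30c-5p the LFC was 0.00 ± 0.09 and for hsa-mir-30c-1-3p -0.01 ± 0.14, and neither passed in edgeR (adjusted p = 0.989 and 0.957), but both passed in opposite directions with other scalings. With upper-quartile factors they were at 0.92 and 0.91 (edgeR adjusted p = 4.60e-07 and 1.24e-05), and with total counts at -0.34 and -0.35 (edgeR adjusted p = 0.00245 and 0.0498).

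The scaling matters for this contrast, since upper-quartile factors moved the median LFC of all miRNAs by 0.92 and total counts by -0.34. A shift common to all miRNAs leaves the ratios between members of a library, and so the shares within the family, as they are. Among the chosen 3p strands the LFC between the lines was 1.92 ± 0.11 for hsa-mir-30d-3p, -0.98 ± 0.12 for hsa-mir-30c-2-3p and -0.61 ± 0.09 for hsa-mir-30e-3p with TMM factors. With upper-quartile factors the same LFC was 2.85, -0.06 and 0.31, so that of hsa-mir-30c-2-3p was near 0 and that of hsa-mir-30e-3p had the opposite sign.

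On MYEOV knockdown in AsPC-1, 1 of the 7 members that were not chosen by their values passed an adjusted p of 0.05 in edgeR, a share of 14.3% against 11.4% of the 498 miRNAs tested (57). This background rested on single libraries: 102 of 505 miRNAs passed without control replicate 1, the library that stood apart, 24 of 519 without knockdown replicate 1 and 31 of 515 without knockdown replicate 3. The member was hsa-mir-30a-3p, with a higher level on knockdown (7.03% of all tested). It did not pass without either of these knockdown replicates, and without control replicate 1 it passed together with hsa-mir-30d-5p, which was lower on knockdown. The chosen hsa-mir-30e-3p, which has the same seed, was past the same threshold by the values it was chosen for, which made 2 of 10 members, a count from which nothing is read. None of the 5p strands passed in edgeR, and at an unadjusted p under 0.05 the count of 5p strands was also 0. The groups did not overlap for 2 of these 7 members, hsa-mir-30a-5p and hsa-mir-30a-3p (28.6%, and 30.5% of all tested). The median LFC was -0.03 over the 7 members, -0.05 over all 10 and 0.00 over all miRNAs tested. Here and below, LFC is knockdown minus control within a line and CPM is TMM-scaled within a line.

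On knockdown in PANC-1, 2 of the 7 members that were not chosen by their values passed in edgeR, a share of 28.6% against 22.0% of the 551 miRNAs tested (121, against 68 of 569 without knockdown replicate 2 and 55 of 572 without knockdown replicate 3). They were hsa-mir-30a-3p and hsa-mir-30c-1-3p, both with a higher level on knockdown (12.7% of all tested). Over all miRNAs, 70 rose and 51 fell with TMM factors, 65 and 29 with upper-quartile factors, and 26 and 117 with total counts, with which neither of these 2 members passed. The 3 chosen strands were past the same threshold by the values they were chosen for, which made 5 of 10 members, all the 3p ones, a count from which nothing is read. None of the 5p strands passed, although hsa-mir-30a-5p and hsa-mir-30e-5p had an unadjusted p under 0.05. The groups did not overlap for the same 2 of 7 members (36.7% of all tested). The median LFC was 0.19 over the 7 members, 0.29 over all 10 with the chosen strands, and 0.03 over all miRNAs tested. On knockdown the 3p strands of 30a, 30d and 30e summed to 0.0939% to 0.104% of counted reads (AsPC-1) and 0.157% to 0.174% (PANC-1), above all controls of the line. This sum holds 2 of the chosen strands, and hsa-mir-30d-3p within it had an LFC of -0.09 in AsPC-1. The 3p strands of 30c summed to 0.00549% to 0.00656% on knockdown in AsPC-1, which overlapped the controls from below, and to 0.0171% to 0.0191% in PANC-1, above all controls, with a chosen strand in this sum too. The 5p sum was 4.04% to 4.11% in AsPC-1, below all controls of the line, and 3.75% to 4.35% in PANC-1, which overlapped the controls. Both knockdown contrasts use the control libraries that also enter the comparison of the lines.

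**Figure D3:**
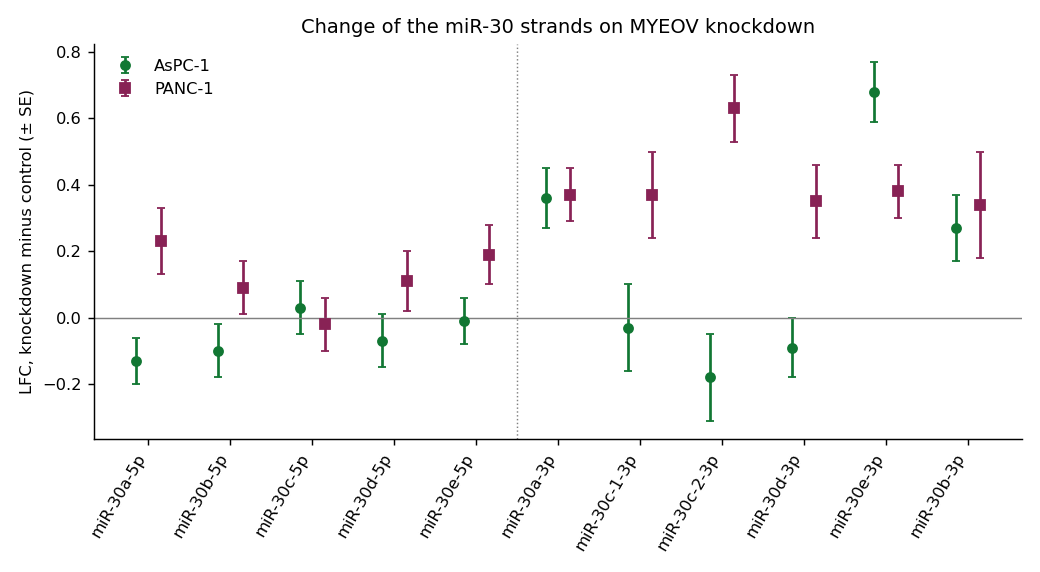
LFC on MYEOV knockdown (vertical axis, knockdown minus control, points with SE bars, 3 libraries a group) of each miR-30 strand in AsPC-1 (circles) and PANC-1 (squares), with the 5p strands left of the dotted line and the 3p strands right of it. The 5p strands lie between -0.13 and 0.23, and the 3p members lie between -0.18 and 0.68 in AsPC-1, with 3 of 5 below 0, and between 0.35 and 0.63 in PANC-1; 3 of these 5 strands were chosen by these values.

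hsa-mir-30a-3p, the minor arm of MIR30A, rose in both lines. In AsPC-1 it was counted at 176, 171 and 185 CPM in control replicates 1 to 3 and at 244, 218 and 220 CPM in knockdown replicates 1 to 3. All knockdown libraries lay above all controls, with an LFC of 0.36 ± 0.09 (SE, n = 3 a group, edgeR adjusted p = 0.0149). In PANC-1 the levels were 606, 616 and 582 CPM in controls and 772, 794 and 761 CPM on knockdown. Again the groups did not overlap, and the LFC was 0.37 ± 0.08 (edgeR adjusted p = 0.00152). The call in AsPC-1 was lost without knockdown replicate 1 (LFC 0.30, adjusted p = 0.134 in edgeR) and without knockdown replicate 3 (LFC 0.38, adjusted p = 0.0556 in edgeR), and also with all 12 libraries in 1 fit (LFC 0.25, adjusted p = 0.0900 in edgeR) and with a replicate block (LFC 0.36, adjusted p = 0.0777 in edgeR). The call in PANC-1 was lost with total count scaling (LFC 0.22, adjusted p = 0.0590 in edgeR). Total counts moved the median LFC of all miRNAs in PANC-1 by -0.15.

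hsa-mir-30e-3p, which carries the same seed, was one of the 3 members chosen by their values. In AsPC-1 its levels were 350, 364 and 404 CPM in controls and 645, 574 and 574 CPM on knockdown, an LFC of 0.68 ± 0.09. In PANC-1 they were 686, 693 and 684 CPM in controls and 862, 949 and 879 CPM on knockdown, an LFC of 0.38 ± 0.08. The groups did not overlap in either line. Its share of the family's 3p reads went from 42.8% to 45.2% in AsPC-1 controls to 53.0% to 54.0% on knockdown, while in PANC-1 it was 45.6% to 46.7% and 45.1% to 47.1%, which overlapped.

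hsa-mir-30c-1-3p, the minor arm of the NFYC-intron copy of 30c, was among the rarest members. In AsPC-1 it lay at 27.8, 26.9 and 25.5 CPM in controls and 27.1, 24.6 and 26.7 CPM on knockdown, so the groups overlapped (LFC -0.03 ± 0.13, edgeR adjusted p = 0.904). In PANC-1 it lay at 33.0, 34.4 and 29.8 CPM in controls and at 42.2, 39.5 and 43.9 CPM on knockdown. The groups did not overlap there, with an LFC of 0.37 ± 0.13 (edgeR adjusted p = 0.0415), from 115 to 199 reads a library. This call was close to the threshold: DESeq2 gave an adjusted p of 0.0696, and in edgeR it was 0.231 with total count scaling (LFC 0.22), 0.116 with no filter on low counts and 0.0898 with all 12 libraries in 1 fit. With a library left out, the edgeR adjusted p was 0.0869 without control replicate 2, 0.160 without control replicate 3, and 0.0835, 0.0676 and 0.145 without knockdown replicates 1, 2 and 3.

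hsa-mir-30c-2-3p, its counterpart from the LINC00472 locus, was also chosen by its values. In PANC-1 it lay at 88.9, 106 and 96.0 CPM in controls and at 147, 139 and 164 CPM on knockdown, an LFC of 0.63 ± 0.10 with no overlap. In AsPC-1 it lay at 41.3, 39.9 and 41.0 CPM in controls and at 40.0, 29.3 and 38.8 CPM on knockdown, an LFC of -0.18 ± 0.13. The AsPC-1 groups overlapped, and knockdown replicate 2 alone lay far below the rest, with an LFC of -0.04 without it.

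hsa-mir-30d-3p, the third member chosen by its values, lay at 164, 164 and 185 CPM in AsPC-1 controls and 171, 157 and 154 CPM on knockdown (LFC -0.09 ± 0.09). In PANC-1 it lay at 53.3, 54.7 and 55.4 CPM in controls and 69.8, 71.0 and 66.8 CPM on knockdown (LFC 0.35 ± 0.11). The groups overlapped in AsPC-1 and did not in PANC-1, where the counts were 214 to 303 reads a library. With total count scaling in PANC-1 the LFC of hsa-mir-30d-3p was 0.20, of hsa-mir-30e-3p 0.24 and of hsa-mir-30c-2-3p 0.48.

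hsa-mir-30b-3p, the remaining minor arm, lay at 59.1, 55.5 and 52.9 CPM in AsPC-1 controls and 67.4, 64.8 and 69.9 CPM on knockdown. In PANC-1 it lay at 17.2, 16.5 and 16.3 CPM in controls and 20.8, 21.6 and 20.9 CPM on knockdown, from 63 to 95 reads a library. The groups did not overlap in either line, and neither the AsPC-1 LFC of 0.27 ± 0.10 nor the PANC-1 LFC of 0.34 ± 0.16 passed in edgeR (adjusted p = 0.104 and 0.126). Without AsPC-1 control replicate 1, the library that stood apart, the AsPC-1 LFC was 0.32 and passed (edgeR adjusted p = 0.0146).

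In the fit of each line with all its libraries and no replicate block, the 5p strands, the abundant arms of the family, did not pass in either line in edgeR. hsa-mir-30a-5p lay at 5938, 5909 and 6076 CPM in AsPC-1 controls and 5640, 5351 and 5433 CPM on knockdown, which did not overlap (LFC -0.13 ± 0.07, edgeR adjusted p = 0.297). In PANC-1 it lay at 13268, 14412 and 14410 CPM in controls and 14248, 16102 and 19115 CPM on knockdown, which overlapped (LFC 0.23 ± 0.10, edgeR adjusted p = 0.0778). Knockdown replicate 3 was the highest library and replicate 1 lay among the controls, and without replicate 1 the PANC-1 LFC was 0.33 and passed (edgeR adjusted p = 0.0234). Without knockdown replicate 3 it was 0.11 (edgeR adjusted p = 0.435), and with total count scaling 0.09 (edgeR adjusted p = 0.496).

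hsa-mir-30e-5p, which differs from it by 1 base, lay at 5442, 5787 and 5560 CPM in AsPC-1 controls and 5603, 5523 and 5516 CPM on knockdown (LFC -0.01 ± 0.07, edgeR adjusted p = 0.921). In PANC-1 it lay at 8042, 8782 and 8611 CPM in controls and 8437, 9760 and 10791 CPM on knockdown (LFC 0.19 ± 0.09, edgeR adjusted p = 0.132). The groups overlapped in both lines. In PANC-1 the LFC was 0.27 without knockdown replicate 1 and passed (edgeR adjusted p = 0.0398). It was 0.10 without knockdown replicate 3 (edgeR adjusted p = 0.487) and 0.04 with total count scaling (edgeR adjusted p = 0.747).

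hsa-mir-30d-5p, the most abundant strand in AsPC-1, lay at 20437, 23974 and 24165 CPM in its controls and 22105, 21324 and 21765 CPM on knockdown (LFC -0.07 ± 0.08, edgeR adjusted p = 0.600). Control replicate 1 was the lowest of all, and without it the LFC was -0.14 and passed (edgeR adjusted p = 0.0190). In PANC-1 hsa-mir-30d-5p lay at 7392, 8163 and 8643 CPM in controls and 7720, 8539 and 9812 CPM on knockdown (LFC 0.11 ± 0.09, edgeR adjusted p = 0.418), and its LFC was -0.04 with total count scaling and 0.01 without knockdown replicate 3.

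hsa-mir-30c-5p lay at 5408 to 6076 CPM in AsPC-1 controls and 5874 to 6024 CPM on knockdown, and at 6949 to 7108 CPM in PANC-1 controls and 6725 to 7175 CPM on knockdown. The LFC was 0.03 ± 0.08 and -0.02 ± 0.08 (edgeR adjusted p = 0.842 and 0.920). hsa-mir-30b-5p lay at 2142 to 2550 CPM in AsPC-1 controls and 2129 to 2178 CPM on knockdown, and at 685 to 769 CPM and 735 to 808 CPM in PANC-1 (LFC -0.10 ± 0.08 and 0.09 ± 0.08, edgeR adjusted p = 0.477 and 0.453). The groups of both strands overlapped in both lines, with the lone high hsa-mir-30b-5p value in AsPC-1 control replicate 1, without which the AsPC-1 LFC of hsa-mir-30b-5p was -0.02 (edgeR adjusted p = 0.880).

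The ratio of 5p to 3p counts in a library compares both arms of a hairpin without any scaling between libraries. For MIR30A in AsPC-1 the ratio was 33.7, 34.6 and 32.8 in controls and 23.1, 24.6 and 24.7 on knockdown. All knockdown libraries lay below all controls, with a log2 change of -0.48 ± 0.04 (SE, n = 3 a group), and the two-sided exact permutation test gave p = 0.1, the smallest that 3 libraries against 3 can give. In PANC-1 the ratio was 21.9, 23.4 and 24.7 in controls and 18.5, 20.3 and 25.1 on knockdown, which overlapped (log2 change -0.14 ± 0.14, exact permutation p = 0.4). Between the control libraries, the ratio was higher in AsPC-1 by 0.53 ± 0.06 on the log2 scale, again without overlap (exact permutation p = 0.1).

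The other hairpins are described without a test. The ratio of MIR30E was 15.5, 15.9 and 13.8 in AsPC-1 controls and 8.69, 9.63 and 9.61 on knockdown. In PANC-1 it was 11.7, 12.7 and 12.6 in controls and 9.79, 10.3 and 12.3 on knockdown, with replicate 3 inside the control range. Thus hsa-mir-30e-3p made up 5.91% to 6.77% of both arms in AsPC-1 controls and 9.41% to 10.3% on knockdown.

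The ratio of MIR30B was 43.1, 40.4 and 40.5 in AsPC-1 controls and 31.6, 33.6 and 30.9 on knockdown, and in PANC-1 it was 44.8, 42.5 and 42.0 in controls and 35.3, 34.8 and 38.6 on knockdown. Its groups did not overlap in either line, and the log2 change was -0.37 ± 0.05 in the first and -0.25 ± 0.05 in the second. Its control ratios in the lines overlapped, although the level of hsa-mir-30b-5p differed between the lines by an LFC of 1.96.

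For 30c, the 5p count was divided by the sum of both 3p strands. The ratio was 78.3, 89.7 and 91.5 in AsPC-1 controls and 89.9, 111 and 89.6 on knockdown, which overlapped. In PANC-1 it was 57.9, 50.8 and 55.3 in controls and 37.9, 39.2 and 32.4 on knockdown, which did not, with a log2 change of -0.58 ± 0.10. With a single 3p strand in place of the sum, that change was -0.39 for hsa-mir-30c-1-3p and -0.65 for hsa-mir-30c-2-3p. In AsPC-1 it was 0.07 with hsa-mir-30c-1-3p, which overlapped, and 0.22 ± 0.16 with hsa-mir-30c-2-3p. The latter groups were narrowly apart, with 150.2 in the highest control and 150.6 in the lowest knockdown library. For MIR30D the ratio was 125 to 146 and 129 to 141 in AsPC-1 and 139 to 156 and 111 to 147 in PANC-1, and the groups overlapped in both lines.

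**Figure D4:**
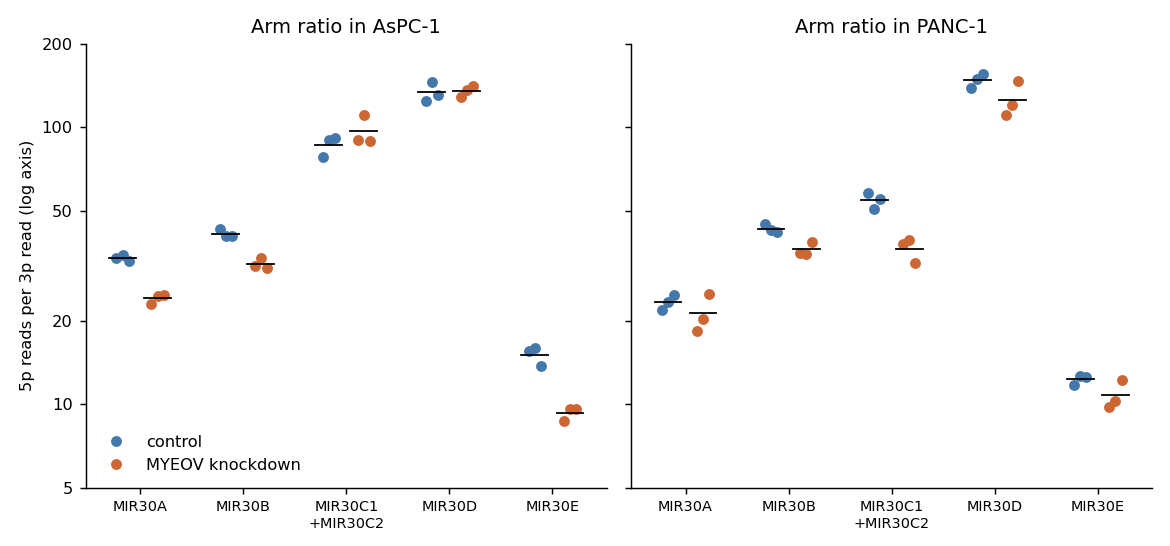
Number of 5p reads per 3p read (log axis) of each miR-30 hairpin in each library, for AsPC-1 (left) and PANC-1 (right); points are the 3 control and 3 MYEOV knockdown libraries and black lines their means, and for 30c both 3p strands are summed. In AsPC-1 the knockdown libraries lie below the controls for MIR30A, MIR30B and MIR30E, and in PANC-1 for MIR30B and 30c.

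The same ratio was taken for all 64 hairpins with a mean of at least 50 counts in each arm in each line. In AsPC-1 20.3% of them, 13 hairpins with those of the family included, had a lower ratio on knockdown with no overlap. MIR30A, MIR30B and MIR30E were 3 of these 13, but the ratio of MIR30E has a strand chosen by its values as its denominator, so nothing is read from its place there. In PANC-1 the share was 21.9% (14 hairpins), with MIR30B as the member of these from the family (30c is not among the 64, since its 3p strands have names of their own). The median log2 change over the 64 hairpins was -0.07 in either line, with quartiles of -0.27 and 0.10 in AsPC-1 and -0.28 and 0.13 in PANC-1. Of the minor arms outside the family, 14 rose and 3 fell of 123 tested in AsPC-1, and 23 rose and 7 fell of 146 tested in PANC-1, with median LFC of -0.01 and 0.06.

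**Figure D5:**
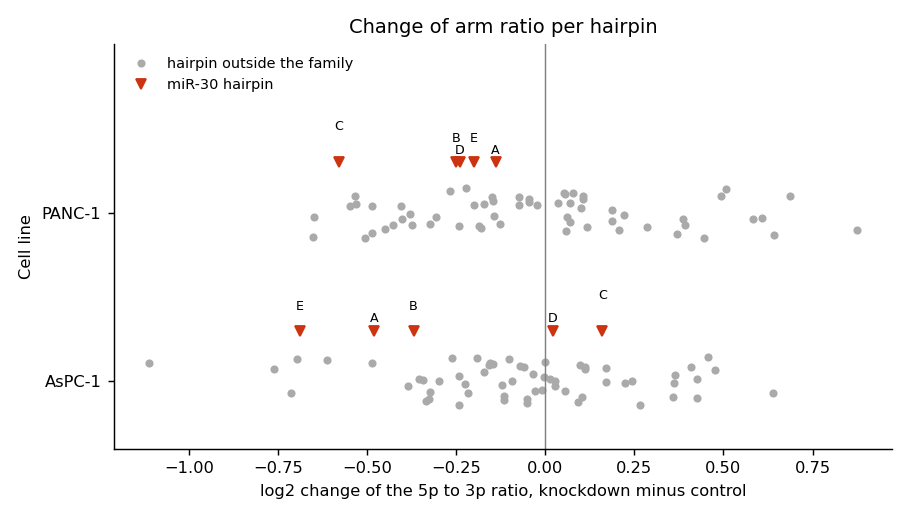
log2 change of the 5p to 3p ratio on MYEOV knockdown (horizontal axis) in AsPC-1 and PANC-1, for hairpins outside the family (grey points, spread vertically to be seen) and for the miR-30 hairpins (triangles, with their letters). The triangles lie between -0.69 and 0.16 in AsPC-1 and between -0.58 and -0.14 in PANC-1.

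Strands from neighbouring hairpins were compared within a library. The count of hsa-mir-30c-2-3p was 0.222 to 0.234 times that of hsa-mir-30a-3p, its neighbour in LINC00472, in AsPC-1 controls and 0.134 to 0.177 times on knockdown. In PANC-1 the ratio was 0.147 to 0.172 in controls and 0.175 to 0.215 on knockdown. So it was lower on knockdown in AsPC-1 and higher in PANC-1, without overlap in either line. The count of hsa-mir-30c-1-3p was 0.0631 to 0.0794 times that of hsa-mir-30e-3p, its neighbour in NFYC, in AsPC-1 controls and 0.0420 to 0.0466 times on knockdown, while in PANC-1 the ranges of 0.0435 to 0.0496 and 0.0416 to 0.0499 overlapped. Each of these ratios has in it a member chosen by its values.

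The difference of the knockdown response between the lines was fitted over all 12 libraries with an interaction term, in which 0.308% of the 650 miRNAs tested passed in edgeR. None of the 7 members that were not chosen by their values passed, and 4 of them had an unadjusted p under 0.05, as had 74 of the 650 miRNAs (11.4%). DESeq2 also called none of these 7. For hsa-mir-30a-5p the LFC in AsPC-1 minus that in PANC-1 was -0.46 ± 0.14 (edgeR adjusted p = 0.104), and it passed without AsPC-1 control replicate 1 (-0.45, edgeR adjusted p = 0.0205) and without AsPC-1 control replicate 2 (-0.52, edgeR adjusted p = 0.0439). Of all miRNAs, 25 of 665 passed without the former library and 20 of 667 without the latter, against 2 of 650 with all. It was smaller with other scalings, at -0.29 with DESeq2 (adjusted p = 0.485) and -0.23 with total counts (edgeR adjusted p = 0.477), and the median over all miRNAs was -0.12. For hsa-mir-30c-1-3p it was -0.50 ± 0.20 (edgeR adjusted p = 0.280) and -0.27 with total counts, and for hsa-mir-30a-3p -0.11 ± 0.13 (edgeR adjusted p = 0.777).

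The 3 strands chosen by their values differed between the lines by -0.91 ± 0.17 for hsa-mir-30c-2-3p, -0.53 ± 0.15 for hsa-mir-30d-3p and 0.20 ± 0.13 for hsa-mir-30e-3p. With total counts these values were -0.68, -0.30 and 0.43, and with DESeq2 -0.74, -0.37 and 0.37. The first and second of them had an LFC above 0 in PANC-1 and below 0 in AsPC-1, and hsa-mir-30e-3p had one above 0 in both lines.

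Across the 12 libraries, with the mean of each line removed, the members were also compared with each other, as a description over libraries that share their knockdown and their scaling. Among the highest values, Pearson's r of log2 CPM was 0.949 between hsa-mir-30a-5p and hsa-mir-30e-5p, 0.914 between hsa-mir-30a-3p and hsa-mir-30e-3p, and 0.893 between the 3p strands of 30c. Between both arms of a hairpin r was 0.160 for MIR30A, 0.0582 for MIR30E and 0.511 for MIR30D. Apart from hsa-mir-30a-5p with hsa-mir-30e-5p and the arms of MIR30A, each of these pairs has in it a member chosen by its values.

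Outside the family, the miRNAs most like hsa-mir-30a-3p among 639 compared were hsa-mir-27a-5p (r = 0.971, n = 12 libraries) and hsa-mir-27b-5p (r = 0.933). Those most like hsa-mir-30e-3p, chosen by its values as were hsa-mir-30c-2-3p and hsa-mir-30d-3p, were hsa-mir-7974 (r = 0.967) and hsa-mir-486-3p (r = 0.960). hsa-let-7b-5p was the most like strand for hsa-mir-30a-5p (r = 0.902), hsa-mir-30e-5p (r = 0.895) and hsa-mir-30c-2-3p (r = 0.842). For hsa-mir-30d-5p it was hsa-mir-374a-3p (r = 0.923), for hsa-mir-30d-3p hsa-mir-5699-3p (r = 0.920), for hsa-mir-30b-5p hsa-mir-651-5p (r = 0.896), for hsa-mir-30c-1-3p hsa-mir-182-3p (r = 0.874) and for hsa-mir-30c-5p hsa-mir-616-5p (r = 0.864). Some of these strands were rare: hsa-mir-5699-3p had a mean of 6.33 reads in AsPC-1 controls and 6 in PANC-1 controls, hsa-mir-651-5p 8.33 in PANC-1 controls, and hsa-mir-616-5p 35 and 18.3, so their r rests on few reads.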

How the data were processed

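Small RNA was sequenced in 12 libraries with 50 nt reads, 3 per group. The authors removed adapters, aligned to hg19 using Bowtie, retained miRNA-sized reads without mismatch and deposited raw counts per mature miRNA; isoforms with another 5′ end than the main sequence were not counted, and strand setting, Bowtie version and miRNA release are not given in the sources used here. A miRNA a library does not list was set to 0. A count of 3 equals 0.410 to 0.788 CPM, for counting error only.

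The members and lists were chosen with earlier results of these data known. Counts were tested with the edgeR 4.0.16 quasi-likelihood test in R 4.3.3 (TMM, filterByExpr with a minimum count of 10, Benjamini-Hochberg adjustment over all miRNAs tested, threshold 0.05), in each line, between control groups, and for the interaction over 12 libraries. The SE is the absolute LFC divided by the square root of F. Arm ratios were compared with exact permutation tests (scipy 1.17.1). All tests were two-sided. On simulated data the fits called 62.2% (AsPC-1) and 59.6% (PANC-1) of the miRNAs given an LFC of 0.5. It was 57.6% between control groups and 34.1% for the interaction, so changes of this size can go uncalled. The named miRNAs are all members, the remaining arm, and for each member those with the highest r of log2(CPM + 0.5) outside the family. DESeq2 1.42.0, total counts, upper-quartile factors, no filter, a fit of all libraries, a replicate block and leaving out each library were tried. Upper-quartile factors were not tried for the interaction, and the fit of all libraries was an alternative for the knockdown contrasts only.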

Additional observations from a re-analysis of the deposited data

How the results depend on the processing

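Depth limits the rarest strands. These were hsa-mir-30c-1-3p with 115 to 199 reads a library, hsa-mir-30b-3p with 63 to 95 in PANC-1, and hsa-mir-30c-2-3p with 175 to 293 in AsPC-1. The deviations of same-numbered libraries had r of -0.159, -0.126 and 0.123 in AsPC-1 and 0.0521, 0.0293 and 0.140 in PANC-1. So few pairs cannot decide whether same-numbered libraries were handled together, which neither the labels nor the methods say. With a replicate block, 29 miRNAs and 1 member passed in AsPC-1 and 153 and 7 in PANC-1, in place of 57 and 2, and 121 and 5. Under the block hsa-mir-30a-3p no longer passed in AsPC-1 (edgeR adjusted p = 0.0777), and the 5p strands hsa-mir-30a-5p (LFC 0.22, edgeR adjusted p = 0.0227) and hsa-mir-30e-5p (LFC 0.18, edgeR adjusted p = 0.0483) passed in PANC-1. The cause of the changes given here was not tested.

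With all 12 libraries in 1 fit, 70 of 650 miRNAs (25 higher, 45 lower) passed in AsPC-1 and 67 of 650 in PANC-1. Of the members that were not chosen by their values, none passed in AsPC-1 and hsa-mir-30a-3p alone passed in PANC-1. In PANC-1, 143 of 551 miRNAs passed with total count scaling, and 90 of 1521 with no filter on low counts. No member outside the chosen strands passed with total count scaling, and hsa-mir-30a-3p alone did with no filter. Leaving out each library gave 24 (without knockdown replicate 1) to 102 (without control replicate 1) miRNAs in AsPC-1. In PANC-1 it gave 55 (without knockdown replicate 3) to 129 (without control replicate 3). Of the members not chosen by their values, none passed in AsPC-1 without knockdown replicate 1 or 3. With any other library left out hsa-mir-30a-3p passed there, joined by hsa-mir-30d-5p without control replicate 1. In PANC-1 hsa-mir-30a-3p passed with each library left out. It was joined by hsa-mir-30c-1-3p without control replicate 1, and by hsa-mir-30a-5p and hsa-mir-30e-5p without knockdown replicate 1. The interaction gave 2 miRNAs, 10 with no filter, and 1 (without AsPC-1 knockdown replicate 1) to 25 (without AsPC-1 control replicate 1) with a library left out.

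LFC near 0 changed sign. In AsPC-1, hsa-mir-30c-5p was at -0.06 with all 12 libraries and -0.01 to 0.07 with a library left out, hsa-mir-30c-1-3p at -0.06 to 0.02 and hsa-mir-30e-5p at -0.02 to 0.01 likewise, and hsa-mir-30e-5p at 0.00 with upper-quartile factors. In PANC-1, hsa-mir-30b-5p was at -0.06 and hsa-mir-30d-5p at -0.04 with total count scaling, and hsa-mir-30c-5p at 0.03 with upper-quartile factors and -0.04 to 0.01 with a library left out. Between the lines, upper-quartile factors gave 0.92 for hsa-mir-30c-5p, 0.91 for hsa-mir-30c-1-3p, 0.60 for hsa-mir-30e-5p and 0.31 for hsa-mir-30e-3p. There hsa-mir-30c-5p was at 0.00 with DESeq2, 0.01 with no filter and -0.02 to 0.07 with a library left out, and hsa-mir-30c-1-3p at -0.02 to 0.09, while total counts gave -0.34 and -0.35, both past the threshold. The difference of response was 0.06 with DESeq2 and 0.12 with total counts for hsa-mir-30a-3p, 0.11 and 0.18 for hsa-mir-30c-5p (-0.09 to 0.02 with a library left out), and 0.06 with total counts for hsa-mir-30b-3p. Total counts moved the median difference of all miRNAs by 0.23 and DESeq2 by 0.16. The log2 arm ratio change of MIR30D in AsPC-1 was -0.03 to 0.08. The arm ratio changes of the other hairpins kept their direction with 0.5 counts added and with each library left out, but not always their size. The change of MIR30A in PANC-1, -0.14 with all libraries, was -0.05 without knockdown replicate 1 and -0.27 without knockdown replicate 3.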
